A study of Mus musculus with 12 samples.

Results

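The genes described here are the 9 AMPA and kainate receptor subunit genes of the mouse, Gria1 to Gria4 and Grik1 to Grik5, among 52634 genes counted. They were taken by gene symbol, and each symbol matched 1 row of the table. All 9 passed the filter on low counts that left 17631 genes for testing. RNA was sequenced from dorsal hippocampus of mice at postnatal day 7 in 12 libraries, each from tissue of 4 pooled mice. Controls were of the SERTfl/fl genotype, with loxP-flanked Slc6a4, the serotonin transporter gene. SERTPyramid mice carry the conditional loss of that gene in pyramidal neurons, and the labels do not name the Cre driver. There were 3 libraries of each genotype labelled female and 3 labelled male, and the comparisons of genotype within each labelled sex ask what loss of the transporter changes in the developing hippocampus.

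AMPA receptors are tetramers of the products of Gria1 to Gria4 and carry most fast excitatory transmission in the hippocampus. Kainate receptors are tetramers too. The products of Grik1 to Grik3 can form channels by themselves, whereas those of Grik4 and Grik5 bind kainate with high affinity and need a partner from the first set. Kainate receptors are best known in the hippocampus from the mossy fibre synapses on CA3 pyramidal neurons, and pyramidal neurons, interneurons and glia all express members of both families.

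The coding sequence of every member carries the Q/R site, a codon in the pore loop, and it is shown because it is where the RNA of some members, Gria2 among them, is known to be edited. In Gria2 RNA the enzyme ADAR2, the product of Adarb1, changes this glutamine codon so that it is read as arginine, which keeps calcium out of the channel, and Grik1 and Grik2 RNA is edited there in part. The genomic reference is glutamine in each gene. Each line gives 30 bases of coding strand from the longest annotated coding sequence in GENCODE M21 (GRCm38), 5′ to 3′, with the Q/R codon in capitals.
Gria1: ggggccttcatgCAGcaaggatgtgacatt
Gria2: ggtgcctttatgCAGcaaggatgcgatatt
Gria3: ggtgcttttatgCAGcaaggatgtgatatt
Gria4: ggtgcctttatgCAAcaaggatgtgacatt
Grik1: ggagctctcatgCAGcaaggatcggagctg
Grik2: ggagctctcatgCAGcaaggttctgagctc
Grik3: ggctccctgatgCAGcaaggatctgaactg
Grik4: ggaggcttcatgCAGcaaggctccactatt
Grik5: ggtggcttcatgCAGcagggctcggagatc
The codon was CAG in 8 genes and CAA in Gria4. Against the Gria2 window, Gria3 differed at 2 bases, Gria4 at 3 and Gria1 at 4, while the kainate windows differed at 7 to 10. The Gria2 window lies at chr3:80706896-80706925 on the minus strand, in exon 11 of 16. The windows of Grik1, Grik2 and Grik3 cross an exon junction, and their codons lie at chr16:87940542-87940544 (minus strand), chr10:49244329-49244331 (minus strand) and chr4:125691207-125691209 (plus strand). The other windows lie at chr11:57243082-57243111 for Gria1 and chrX:41610253-41610282 for Gria3, both on the plus strand, and at chr9:4464122-4464151 for Gria4, chr9:42547608-42547637 for Grik4 and chr7:25022482-25022511 for Grik5, all on the minus strand. Counts per gene do not tell edited from unedited RNA, nor the flip and flop splice forms apart. The annotated exons of the members have few identical stretches of 50 bases in common, and matches elsewhere in the genome were not looked for. Of the stretches of 50 bases in each gene's exons, 19 of 15690 in Gria2, 11 of 9934 in Gria3 and 10 of 6276 in Gria4 occur in another member. So do 2 of 8923 in Grik3 and 4 of 5911 in Grik4, and 0 in Gria1, Grik1, Grik2 and Grik5.

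Each library held between 18747249 and 25522347 counts, and 3 counts correspond to 0.118 to 0.160 CPM, the usual scaling of a count to its library's total. Transcripts of Xist and of the Y chromosome went against the labelled sex in 10 libraries, the exceptions being control replicate 1 of each labelled sex. Each control group therefore mixes libraries with female and with male transcripts, and each SERTPyramid group does not. Female and male name the label throughout, and results were also computed without these 2 controls. Slc6a4 itself had 0 to 17 counts in controls and 1 to 12 in SERTPyramid libraries, too few to check the genotype labels. Summed markers of glutamatergic forebrain neurons were at 3742 to 4615 CPM and those of CA3 pyramidal neurons at 199 to 224 CPM. Choroid plexus markers varied most, from 25.3 CPM in female SERTPyramid replicate 3 to 2440 CPM in male SERTPyramid replicate 1. The labels do not say whether pools of different libraries shared litters, and p-values therefore speak of the spread between these libraries only.

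None of the 9 genes was called different between genotypes. By edgeR's quasi-likelihood test with Benjamini-Hochberg adjustment over all genes, 0 of 9 members passed an adjusted p of 0.05 in labelled females, in labelled males, in the difference between the labelled sexes or in their average, where 0% of all genes tested passed in each case. At an unadjusted p under 0.05 the members numbered 0 of 9 in every comparison, while 8.04% of all genes passed in labelled females, 3.16% in labelled males, 4.45% in the difference between them and 6.49% in the average. Averaged over the labelled sexes, the 9 log2 fold changes (SERTPyramid over control) ran from -0.11 to 0.04 with a median of -0.02, beside a median of 0.00 over all genes tested, and 3 were above 0. In tissue RNA, fewer cells of a type and less RNA per cell cannot be told apart.

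Gria1 (chromosome 11, 57011387 to 57330244, plus strand), whose product GluA1 is the subunit of activity-driven receptor insertion, was the most abundant member per kilobase of exon. The labelled-female controls had 788, 743 and 716 CPM, and the SERTPyramid libraries 768, 712 and 733. The labelled-male controls had 722, 708 and 692 CPM, and the SERTPyramid libraries 784, 688 and 662. Both pairs of groups overlapped, with the highest value in female control replicate 1 and the lowest in male SERTPyramid replicate 3. In labelled females the log2 fold change came to -0.04 ± 0.06 (SE; edgeR, adjusted p = 0.899) and in labelled males to 0.00 ± 0.06 (adjusted p = 0.999). Without control replicate 1 of both labelled sexes the log2 fold change was 0.00 in labelled females and 0.01 in labelled males.

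Gria2 (chromosome 3, 80681450 to 80802835, minus strand), encodes the subunit that sets calcium permeability. In labelled females, controls had 564, 549.6 and 569 CPM and SERTPyramid libraries 592, 572.1 and 572.2. It was the only member whose groups did not overlap in CPM, by a margin of 569 against 572.1, and 18.8% of all genes were likewise apart in labelled females. After TMM scaling, which corrects library totals for composition, the groups of Gria2 and of the other members overlapped, while 18.9% of all genes did not. In labelled males, controls had 499, 550.5 and 473 CPM and SERTPyramid libraries 606, 437 and 522, so that the SERTPyramid libraries (SD 84.3 CPM, n = 3) spanned the whole range of the controls. The log2 fold change was 0.03 ± 0.08 (SE) in both labelled sexes, with adjusted p = 0.955 in females and 0.999 in males by edgeR. Male SERTPyramid replicate 1, which had the highest Gria2 and the second highest Gria1, also had the highest choroid plexus markers. Male control replicate 1, with 1802 CPM of those markers, had Gria2 at 499 CPM. Female SERTPyramid replicate 3, with 25.3 CPM of them, had Gria2 at 572.2 CPM. The part of choroid plexus cells in these values was not tested.

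Gria3 (chromosome X, 41400854 to 41678601, plus strand) was the steadiest member. Its values were 98.2, 98.0 and 96.6 CPM in labelled-female controls, 98.3, 95.4 and 96.5 in their SERTPyramid counterparts, 92.3, 95.8 and 97.1 in labelled-male controls and 94.7, 93.7 and 94.7 in labelled-male SERTPyramid libraries. The spread within groups was 0.0286 on the log2 scale, and 1.98% of the 1821 genes of similar level had a smaller one. Averaged over labelled sexes the SERTPyramid level was 0.982 of the control level (95% interval 0.940 to 1.03), the narrowest interval among the members. Gria4 (chromosome 9, 4417896 to 4796234, minus strand), whose product is prominent in interneurons, was the least abundant AMPA member per kilobase and had 43.4 to 51.6 CPM. Its group means were 48.7 ± 2.21 and 49.3 ± 1.97 CPM in labelled-female controls and SERTPyramid libraries, and 48.7 ± 4.56 and 47.3 ± 1.96 CPM in the labelled-male groups (SD, n = 3), with all groups overlapping. The genotype difference of Gria4 was 0.00 on the log2 scale in labelled females and -0.06 in labelled males.

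Among the kainate genes Grik5 (chromosome 7, 25009849 to 25072346, minus strand), which encodes the high-affinity subunit GluK5, was the most abundant per kilobase. Labelled-female controls had 389.7, 391 and 384 CPM and SERTPyramid libraries 389.6, 414 and 417. Labelled-male controls had 419, 386 and 392 CPM and SERTPyramid libraries 413, 399.7 and 413. In labelled females 2 of the 3 SERTPyramid libraries lay above every control and the third lay among the controls. The difference there was 0.05 ± 0.05 on the log2 scale (SE; edgeR, adjusted p = 0.825), the smallest adjusted p among the members in that comparison. Grik4 (chromosome 9, 42518135 to 42944493, minus strand), the other high-affinity subunit gene and one known for its expression in CA3, ran from 72.0 to 81.3 CPM over all libraries. Its group means were 75.5 ± 1.47 and 75.0 ± 2.28 CPM in labelled-female controls and SERTPyramid libraries, and 73.3 ± 1.51 and 75.7 ± 4.95 CPM in the labelled-male groups (SD, n = 3). Averaged over the labelled sexes the SERTPyramid level was 1.00 of the control level (95% interval 0.951 to 1.06).

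Grik3 (chromosome 4, 125490700 to 125714173, plus strand), which encodes a channel-forming subunit with presynaptic roles, varied most and gave the largest fold change. Labelled-male controls had 103, 129 and 132 CPM and SERTPyramid libraries 104, 116 and 92.3. Labelled-female controls had 102, 115 and 121 CPM and SERTPyramid libraries 106, 123 and 118. The groups overlapped in both labelled sexes, and in every group except the labelled-male SERTPyramid libraries replicate 1 was the lowest. In labelled males the log2 fold change was -0.23 ± 0.12 (SE, 95% interval -0.51 to 0.04, adjusted p = 0.999 by edgeR), and in labelled females it was 0.02 ± 0.12 (adjusted p = 0.984 by edgeR). The difference between the labelled sexes, 0.25 ± 0.17 (SE, adjusted p = 0.999 by edgeR), did not pass either. Without control replicate 1 of both labelled sexes the values were -0.34 ± 0.10 in labelled males and -0.05 ± 0.10 in labelled females, neither of them called, and the lowest adjusted p of Grik3 in labelled males over all alternatives was 0.477. The spread within groups was 0.165 on the log2 scale, and 97.3% of the 1602 genes of similar level had a smaller one.

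Grik1 and Grik2 encode the other channel-forming subunits, GluK1 being characteristic of interneurons and GluK2 the main subunit at mossy fibre synapses. Grik1 (chromosome 16, 87895900 to 88290265, minus strand) was the least abundant member per kilobase, with 24.4, 28.4 and 32.2 CPM in labelled-female controls and 30.6, 31.0 and 27.9 in their SERTPyramid counterparts. In labelled males it had 29.3, 27.9 and 26.6 CPM in controls and 23.3, 26.1 and 27.1 in SERTPyramid libraries. The groups overlapped in CPM in both labelled sexes, as did those of all 9 members in labelled males, where 6.75% of all genes did not overlap. After TMM scaling the labelled-male groups of Grik1 no longer overlapped, the SERTPyramid libraries being the lower, and 6.93% of all genes did not overlap on that scale. On the log2 scale the difference was -0.14 ± 0.08 (SE; edgeR, adjusted p = 0.999) in labelled males and 0.06 ± 0.08 (adjusted p = 0.898) in labelled females. Grik2 (chromosome 10, 49094833 to 49788766, minus strand) ran from 86.7 to 96.6 CPM over all libraries, and its mean was 93.4 ± 0.641 and 93.1 ± 3.69 CPM in labelled-female controls and SERTPyramid libraries and 90.6 ± 4.26 and 90.3 ± 3.81 CPM in the labelled-male groups (SD, n = 3). Its log2 difference between genotypes was -0.02 in either labelled sex, and both pairs of groups overlapped.

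**Figure D1:**
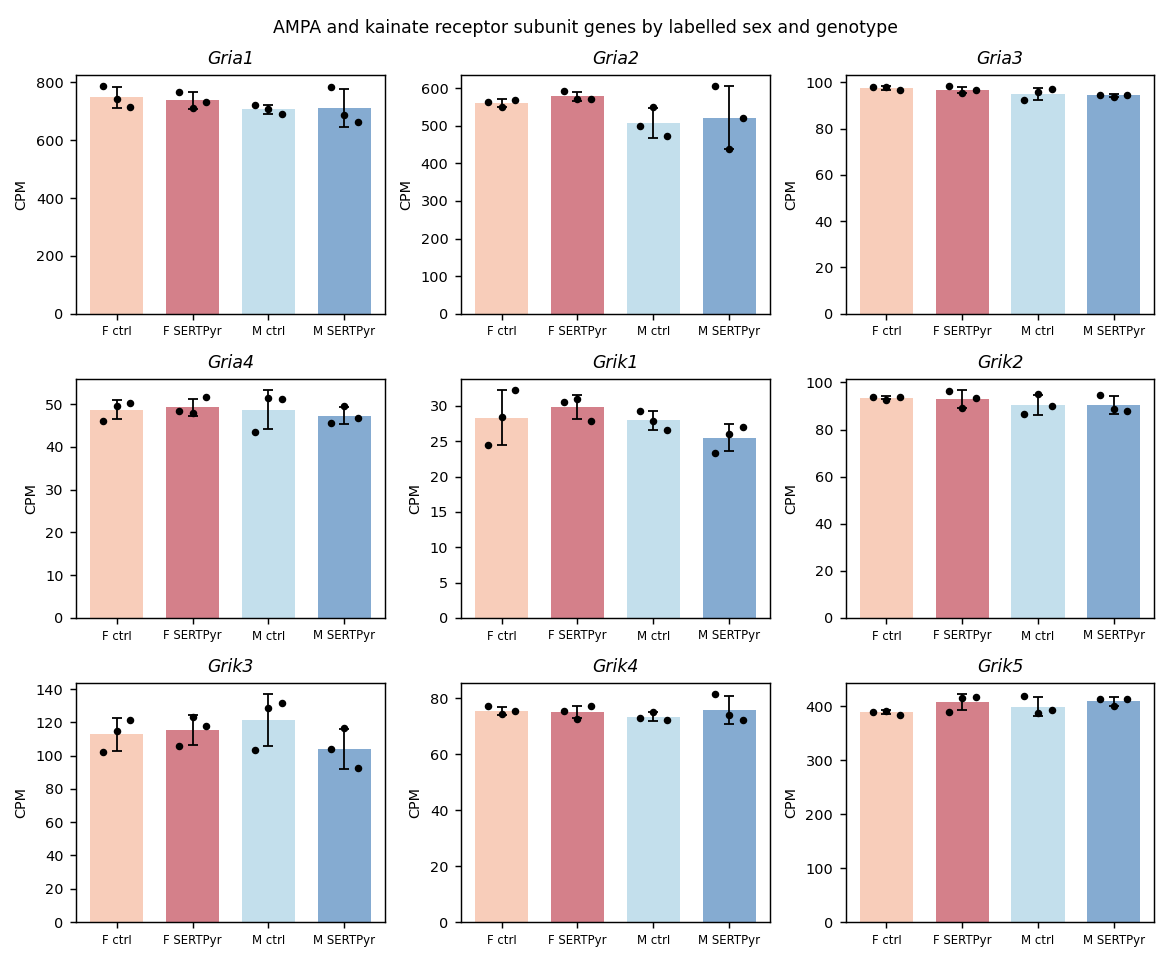
Level of each subunit gene in CPM (vertical axes, from 0) in the 4 groups of labelled sex and genotype; bars are group means, whiskers are SD over 3 libraries and dots are single libraries (F and M, labelled sex; ctrl, SERTfl/fl; SERTPyr, SERTPyramid). The dots of Gria3 lie between 92.3 and 98.3 CPM, whereas those of Grik3 spread from 92.3 to 132 CPM and those of Gria2 from 437 to 606 CPM.

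Fitting the 6 labelled-female libraries alone, where 2.43% of 17108 genes were called, left 0 of 9 members called, and the smallest adjusted p by edgeR was 0.618 for Grik5. The 95% intervals bound the genotype differences that these libraries leave possible. In the average over labelled sexes they lay within 0.811 to 1.11 of the control level for every member, the lower bound being that of Grik3 and the upper that of Gria2. A p that misses the threshold does not show that the levels are the same.

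**Figure D2:**
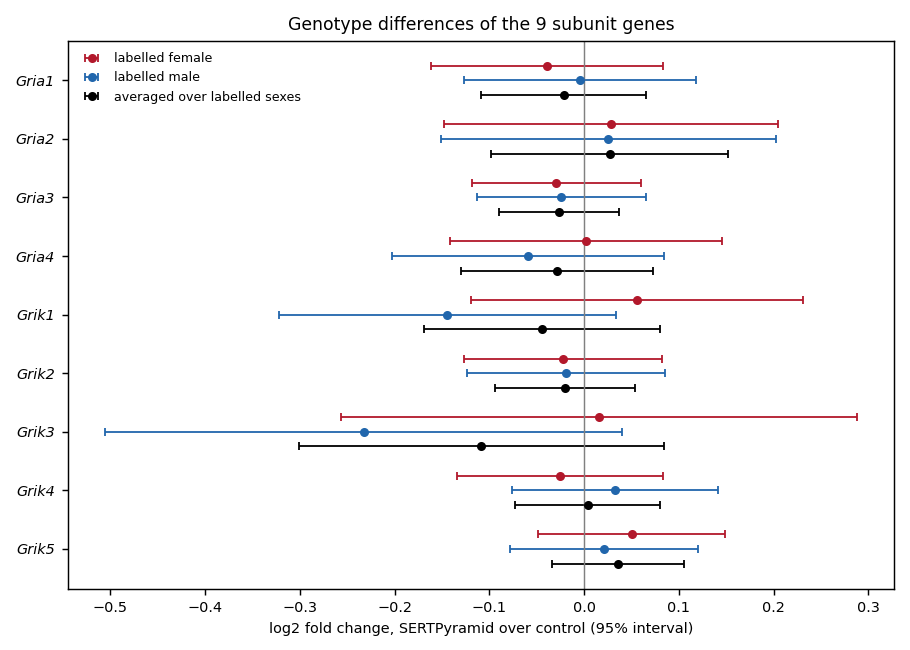
Log2 fold change of SERTPyramid over control (horizontal axis) for each subunit gene in labelled females, in labelled males and averaged over both; points are edgeR estimates and whiskers 95% intervals. Every interval includes 0, and that of Grik3 in labelled males, from -0.51 to 0.04, reaches furthest below it.

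Divided by the length of each gene's merged exons, levels can be set side by side between genes. On this scale Gria1 stood at 120.2 ± 6.43 CPM per kilobase (SD over 12 libraries), followed by Grik5 at 77.5 ± 2.57 and Gria2 at 34.9 ± 3.23. Grik3 at 12.6 ± 1.34 and Grik4 at 12.6 ± 0.449 did not differ beyond their spread, Grik3 being the higher in 7 of 12 libraries. Gria3 at 9.73 ± 0.190, Gria4 at 7.69 ± 0.410, Grik2 at 6.94 ± 0.246 and Grik1 at 4.15 ± 0.392 CPM per kilobase completed the order, each above the next in 12 of 12 libraries, although the ranges of Gria4 and Grik2 over libraries overlapped. Gria1 thus stood above 98.7% of the genes tested and Grik1 above 51.6%.

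The order rests partly on the length used, because the annotated exons of Gria2 (15548 bases) and Grik2 (13246 bases) are far longer than their coding sequences (2649 and 2724 bases). Per kilobase of longest coding sequence, a choice made after the data were seen, Gria2 at 205 ± 18.9 CPM stood above Grik5 at 136 ± 4.52 CPM in 12 of 12 libraries. Grik2 at 33.7 ± 1.197 CPM then stood above Grik4 at 26.1 ± 0.932 CPM. Gria1 remained the highest at 267 ± 14.3 CPM and Grik1 the lowest at 9.80 ± 0.924 CPM on that scale.

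Within the AMPA family Gria1 made up 69.7% of the summed level per exon length over the 12 libraries and 50.8% per coding length. Gria2 made up 20.2% or 38.9%, Gria3 5.65% or 6.87% and Gria4 4.47% or 3.42% on the same scales. The share of Gria2 in labelled females was 20.3 ± 0.763% in controls and 21.04 ± 0.318% in SERTPyramid libraries (SD, n = 3, per exon length), and in labelled males 19.5 ± 1.10% and 19.9 ± 1.93%. Within the kainate family Grik5 made up 68.1% per exon length and 55.2% per coding length, so that on both scales high-affinity Grik5 exceeded the sum of the 3 channel-forming genes. Grik3 made up 11.1% or 16.6%, Grik4 11.0% or 10.6%, Grik2 6.10% or 13.6% and Grik1 3.65% or 3.97%. The share of Grik3 in labelled males was 11.9 ± 1.66% in controls and 10.2 ± 1.18% in SERTPyramid libraries (SD, n = 3, per exon length), with overlapping ranges of 9.96 to 13.0% and 9.12 to 11.5%. The ratio of the summed AMPA level to the summed kainate level depended on the length used. Per exon length it was 1.59 ± 0.0659 in labelled-female controls and 1.53 ± 0.0922 in labelled-female SERTPyramid libraries (SD, n = 3). In labelled males the ratio was 1.46 ± 0.0378 in controls and 1.48 ± 0.109 in SERTPyramid libraries. Per coding length it was 2.22 ± 0.0861, 2.17 ± 0.117, 2.03 ± 0.0685 and 2.08 ± 0.182 in the same order of groups.

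**Figure D3:**
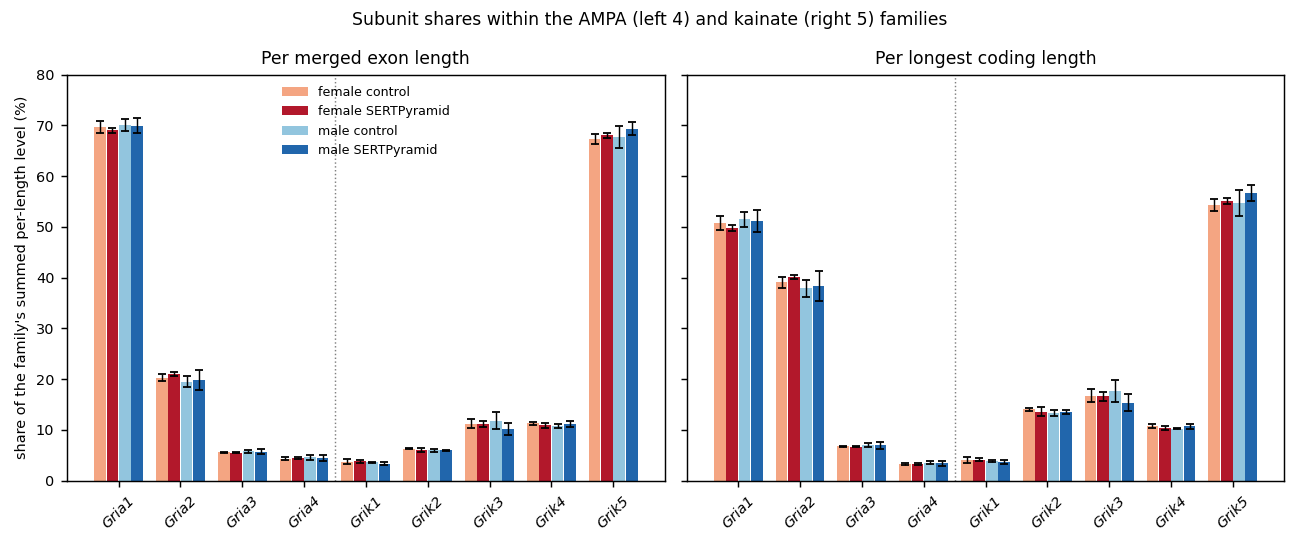
Share of each subunit gene in the summed per-length level of its own family, in percent (vertical axis), for the 4 groups of labelled sex and genotype; bars are means and whiskers SD over 3 libraries, with levels per merged exon length on the left and per longest coding length on the right. Gria1 and Grik5 hold the largest shares on both scales, and the change of length moves the Gria2 share over all libraries from 20.2% to 38.9%.

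The members did not vary together across the libraries as a single block. Of 36 pairs of members, 21 had a positive Pearson correlation of log2 TMM-scaled CPM over the 12 libraries. In permutation tests 0 passed an adjusted p of 0.05, which does not show that the pairs vary independently. Gria4 and Grik3 came closest, with r = 0.82 (permutation p = 0.00156, adjusted over the 36 pairs 0.0562) and Spearman's rho = 0.80 (permutation p = 0.0023, adjusted 0.0828). Without the 2 libraries farthest from the median of Gria4 the r was 0.85, and it was 0.92 within the 6 controls and 0.72 within the 6 SERTPyramid libraries. On this scale replicate 1 had the lowest Gria4 in all 4 groups. Gria1 and Grik4 had r = 0.78 (permutation p = 0.00346, adjusted 0.0623) and rho = 0.63 (permutation p = 0.0322, adjusted 0.246), with 0.66 left without the 2 farthest libraries, 0.71 within controls and 0.83 within SERTPyramid libraries.

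**Figure D4:**
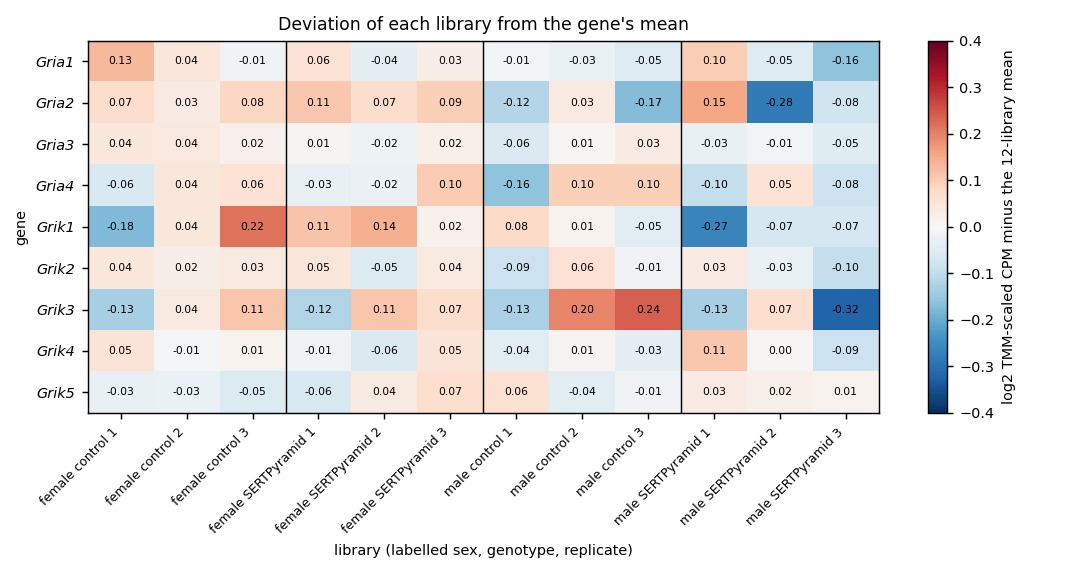
Deviation of each library from the gene's mean over 12 libraries, in log2 TMM-scaled CPM (colour scale, red above and blue below the mean), with genes in rows and libraries in columns grouped by labelled sex and genotype. Grik3 reaches -0.32 in male SERTPyramid replicate 3 and 0.24 in male control replicate 3, and Gria2 -0.28 in male SERTPyramid replicate 2, while no deviation of Gria3 exceeds 0.06 in size.

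The genes whose log2 TMM-scaled CPM followed each member most closely over the 12 libraries were taken by the highest Pearson correlation among 10415 genes, 2 for each member, as a description with no test. Gria1 was followed by Lynx1 (r = 0.95) and Slc24a2 (0.94), Gria2 by the sodium channel gene Scn1a (0.96) and Mtx3 (0.95), Gria3 by Dram2 (0.91) and Rapgef4 (0.91), and Gria4 by the nicotinic receptor subunit gene Chrna4 (0.94) and the protocadherin gene Pcdh11x (0.94). Grik3 had the closest of all, Iqsec1 (r = 0.97) and the calcium pump gene Atp2b4 (0.97). Grik1 was followed by Svbp (r = 0.88) and Bend5 (0.87), Grik2 by Lcor (0.91) and Rfc1 (0.90), Grik4 by the kinase gene Camk2a (0.92) and Nsf (0.91), and Grik5 by the synaptotagmin gene Syt3 (0.90) and Eif2b4 (0.89). Each value is the highest of 10415, and all libraries share the same scaling, so the size of r by itself is not read further.

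Genes whose products assemble, anchor or modulate these receptors gave 0 calls in the 4 comparisons of the 12-library fit. Of 15 AMPA receptor auxiliary subunit genes 13 were tested, and 10 lay below 0 in the average over labelled sexes, with a median log2 fold change of -0.06 beside 0.00 for all genes. Shisa6, which slows receptor desensitization, was at 578 ± 20.9 CPM in labelled-female controls and 525 ± 38.1 CPM in SERTPyramid libraries, and at 550.1 ± 16.1 and 509 ± 56.8 CPM in the labelled-male groups (SD, n = 3), which averaged -0.14 ± 0.05 on the log2 scale (SE; edgeR, adjusted p = 0.756). The cornichon gene Cnih3 averaged -0.09, the TARP gene Cacng2 (stargazin) -0.09 and Syndig1, a transmembrane partner of AMPA receptors, 0.07. Cnih3 and Cacng2 lay below 0 in both labelled sexes, whereas Syndig1 was at -0.02 in labelled females and 0.16 in labelled males. The genes not tested were Cacng7 and Cacng8, with at most 9 and 2 counts in any library. Whether the authors' counting covered these genes was not tested, and their counts are not read as expression.

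Of 10 genes of AMPA receptor assembly and trafficking 6 lay above 0 in the average over labelled sexes, with a median log2 fold change of 0.02. Cpt1c, an endoplasmic reticulum protein that takes part in AMPA receptor assembly, stood at 81.6 ± 2.26 CPM in labelled-female controls and 91.2 ± 0.367 CPM in SERTPyramid libraries, and at 79.9 ± 3.17 and 88.6 ± 10.3 CPM in the labelled-male groups (SD, n = 3). Its average over labelled sexes was 0.14 ± 0.04 on the log2 scale (SE; edgeR, adjusted p = 0.756). Porcn averaged 0.13, the scaffold gene Grip2 0.10 and Frrs1l, needed for assembly of AMPA receptors, -0.08. By labelled sex, females first, Porcn gave 0.18 and 0.07, Grip2 0.20 and -0.004, and Frrs1l -0.16 and 0.0009. Leaving out male SERTPyramid replicate 2, Cpt1c (0.18, adjusted p = 0.0205 by edgeR) and Porcn (0.19, adjusted p = 0.0469) were called higher in the average, among 144 genes called in that fit, 0.8% of those tested, with 0 of 9 members called.

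Of 8 genes of extracellular partners 6 lay below 0 in the average over labelled sexes, with a median log2 fold change of -0.06. In labelled females 6 lay below 0 (median -0.13), whereas in labelled males 6 lay above 0 (median 0.02). Nptxr, the neuronal pentraxin receptor that clusters AMPA receptors, averaged -0.07, Olfm1 -0.06, C1ql3 -0.09 and Olfm3 -0.08. In labelled males Nptxr (0.02), Olfm1 (0.02) and C1ql3 (0.04) lay above 0 and Olfm3 (-0.04) below it. In the fit of labelled-female libraries alone, where 2.43% of all genes were called, Nptxr (-0.16, adjusted p = 0.0370 by edgeR), Frrs1l (-0.16, adjusted p = 0.0261) and C1ql2 (-0.33, adjusted p = 0.0483) fell and Porcn (0.18, adjusted p = 0.0159) rose in SERTPyramid libraries. In the 12-library fit the same comparison left all 4 uncalled (adjusted p = 0.530 to 0.641 by edgeR). C1ql2, named here after its values were seen, encodes a secreted protein of mossy fibres that binds kainate receptors and is also a marker of dentate granule neurons. It ran from 15.8 to 20.1 CPM in labelled-female controls and 13.2 to 14.7 in SERTPyramid libraries, but from 12.5 to 15.01 in labelled-male controls and 17.2 to 20.6 in SERTPyramid libraries. The difference between labelled sexes, -0.75 ± 0.14 on the log2 scale (SE), had an adjusted p of 0.585 by edgeR and 0.0363 by DESeq2. With no low-count filter edgeR gave this difference an adjusted p of 3.26e-05, 1 of 14 genes called there, so the call depends on the processing. The summed dentate granule markers, C1ql2 included, were at 287 to 349.8 CPM against 254 to 279 CPM in labelled females and 264 to 299 against 288 to 312 CPM in labelled males, controls first, and their part in these values was not tested.

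Both kainate receptor auxiliary subunit genes lay below 0 in each labelled sex. Neto2 averaged -0.10 and Neto1 -0.10 on the log2 scale, neither called (smallest adjusted p = 0.756 by edgeR). Neto2 stood at 122 ± 5.72 and 113 ± 1.29 CPM in labelled-female controls and SERTPyramid libraries and at 115 ± 3.95 and 109.6 ± 6.31 CPM in the labelled-male groups (SD, n = 3). Adarb1, which encodes the enzyme that edits the Q/R codon of Gria2 printed above, had group means of 121 ± 3.57, 124 ± 1.53, 119 ± 7.59 and 116 ± 4.95 CPM in the same order (SD, n = 3) and an averaged log2 fold change of -0.02. The related genes Adar (-0.02) and Adarb2 (-0.10) were not called.

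**Figure D5:**
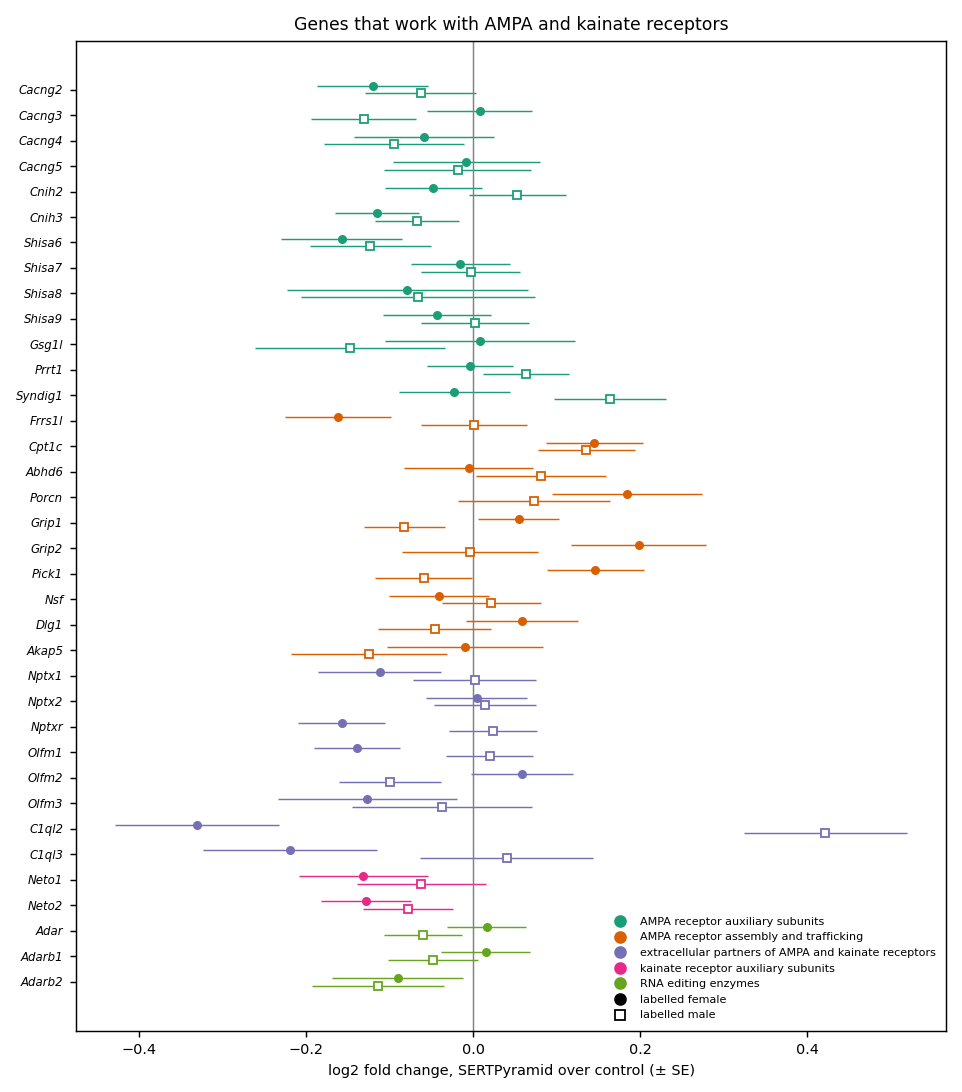
Log2 fold change of SERTPyramid over control (horizontal axis) for the genes that work with AMPA and kainate receptors, coloured by list; filled circles are labelled females, open squares labelled males, and whiskers are SE from edgeR. C1ql2 lies at -0.33 in labelled females and 0.42 in labelled males, and no gene shown passed an adjusted p of 0.05 in this fit.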

How the data were processed

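RNA was extracted from dorsal hippocampus, and TruSeq v2 libraries, which do not mark strand, were made from 250 ng of total RNA, per the labels' protocols. The authors deposited raw read counts per Ensembl gene on mm10, per the labels; the aligner, counting rules and annotation are among the details not given in the sources used here. Counts were used as deposited for 52634 genes, 0 columns were left unmapped, and 0 rows named no gene. Symbols for 52401 identifiers and lengths came from GENCODE M21 (GRCm38). Genes passing filterByExpr were scaled by TMM and tested by edgeR 4.0.16 under R 4.3.3 (robust quasi-likelihood, 4 groups, all 12 libraries), with Benjamini-Hochberg adjustment and a threshold of 0.05. CPM values use library totals. Standard errors were derived from each fold change and its F statistic. The fits were also run on simulated counts with changes put into the labelled-female SERTPyramid group, as a check of the code and not of the results above. No 2 libraries of a group agreed within sampling noise.

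The members and lists were chosen with earlier results of these data known. Named genes are the 9 members, up to 4 genes per partner list with the smallest p in the average, all genes of lists of 3 or fewer, and the 2 most alike genes per member with mean log2 CPM of at least 3. Some genes that this rule takes are not reported here. Alternatives were DESeq2 1.42.0, RLE scaling, other filters, a replicate block, compared groups alone and libraries left out. Correlations used 100000 permutations.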

Additional observations from a re-analysis of the deposited data

How the results depend on the processing

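Of 666 alternative values of the members' log2 fold changes, 0 were called, 48 changed sign, and 17 of 36 results never did, so the signs of small differences are not settled at this number of libraries. Dropping both controls numbered 1 turned Gria1 to 0.0025 in labelled females, 0.0076 in labelled males and 0.0051 averaged. It also turned Gria4 to -0.031, Grik1 to -0.037 and Grik3 to -0.048 in labelled females, and the difference between labelled sexes to 0.026 for Gria3 and 0.036 for Grik2. Leaving out each library in turn, the values ran in labelled females from -0.069 to 0.0023 for Gria1, -0.038 to 0.029 for Gria4, -0.037 to 0.158 for Grik1, -0.038 to 0.0088 for Grik2 and -0.048 to 0.087 for Grik3. In labelled males they ran from -0.074 to 0.056 for Gria1, -0.091 to 0.127 for Gria2, -0.051 to 0.015 for Grik2, -0.016 to 0.079 for Grik4 and -0.0044 to 0.054 for Grik5. The difference between labelled sexes ran from -0.095 to 0.038 for Gria1, -0.095 to 0.123 for Gria2, -0.025 to 0.020 for Gria3, -0.044 to 0.031 for Grik2 and -0.00068 to 0.069 for Grik5. The average ran from -0.055 to 0.0087 for Gria1, -0.030 to 0.079 for Gria2, -0.090 to 0.0076 for Grik1 and -0.019 to 0.027 for Grik4. Over all genes, DESeq2 called 1 in labelled females (Xist) and 1 for the difference between labelled sexes (C1ql2), both named after their values were seen, where edgeR called 0. With no low-count filter the edgeR calls were 103 genes in labelled females, 5 in labelled males, 14 for the difference and 66 in the average. C1ql2 was among those called in labelled males and among those called for the difference. The labelled-female libraries alone gave 415. Leaving out single libraries gave 0 to 2 calls in labelled females (2 without male SERTPyramid replicate 2, Safb2 and Vwa5b2) and 0 to 144 in the average (144 without that library). The cause of these changes was not tested. With a replicate block edgeR called 0 genes in each comparison. Same-numbered libraries were not shown to be paired: of 18 pairs, 2 had deviations from group means correlated over 0.1, and r ran from -0.23 to 0.23. Coding length from RefSeq proteins was not run, and GENCODE coding length, chosen after the data were seen, took its place.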

Other observations

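Cacng8, which encodes TARP gamma-8, an AMPA receptor auxiliary subunit known to be abundant in hippocampus, had 0 to 2 counts in each of the 12 libraries, and its neighbour Cacng7 had 0 to 9. Both were chosen for description after their values were seen. Genes further along chromosome 7 were counted: Oscar had 13 to 31 counts, Ndufa3 820 to 1126, Tfpt 259 to 394 and Prpf31 796 to 1015. Both genes were low in libraries of both genotypes and both labelled sexes. The cause was not tested.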
